A study of Mus musculus with 2 samples.

Results

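The genes described here are the mouse zinc finger protein genes whose symbols are Zfp followed by a 3-digit number that begins with 6, 7, 8 or 9 and nothing more. The rule read only the symbols, not the measured values. It found 152 genes among the 15127 protein-coding genes listed with at least 1 count, and 19 further protein-coding genes with such symbols are annotated in GENCODE M21 but were not listed, which makes 171 annotated members. Poly(A) RNA was sequenced from pSM44 cells, a line of female mouse embryonic stem cells from a cross of 129 and castaneus mice. In this line the endogenous Xist locus on the 129 allele carries a promoter switched on by doxycycline. The cells grew without serum in 2i/LIF, a medium that keeps stem cells naive, and were given 2 µg/mL doxycycline for 24 h. All values come from this 1 treated group of 1 line, whose 2 libraries are labelled alike, and from 1 column of counts that is not tied to either library. Whether it holds 1 library or the sum of both is not stated. There is therefore no replicate error and no test, intervals cover counting error only, and no untreated cells were analysed here.

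Most of these genes encode proteins with arrays of zinc fingers, short folds in which a pair of cysteines and a pair of histidines hold a zinc ion and a few residues of each fold contact DNA. Many carry a KRAB box near the start of the protein, which binds Trim28. Trim28 in turn gathers Setdb1, which methylates histone H3, and the HP1 proteins, and in embryonic stem cells this silences endogenous retroviruses. The KRAB genes arose by repeated local duplication, so neighbours are often near-copies of each other. Reads from near-copies can be left out or divided between genes, and the sources used here do not give the authors' setting for such reads.

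Of the 171 annotated members, 122 (71.3%) had the KRAB pattern searched for here in their translated coding sequence. The share was 41.9% of the 43 members whose number begins with 6, 63.2% of the 38 beginning with 7, 70.4% of the 27 beginning with 8 and 96.8% of the 63 beginning with 9. The highest symbol numbers were thus nearly all KRAB genes, and the label of a largely KRAB gene set holds for the upper end more than for the lower. The members had a median of 11 fingers, up to 33, taking for each gene the translation with the most fingers. Shared transcript sequence was also most common at the upper end. More than 10% of a member's 50-base transcript windows occurred in another gene's transcripts for 40 of the members beginning with 9. The same held for 3 beginning with 8, 10 beginning with 7 and 6 beginning with 6. Windows were matched on either strand, so overlapping genes can share them without being copies. Zfp652, for example, shared 17.3% of its windows with Abi3, which overlaps it on the opposite strand.

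The first repeat unit of 5 members shows the repeat and how alike the copies are. A unit is a finger with its linker, taken where another finger begins 28 codons on, so it need not be the first finger. Each run is 84 bases, or 28 codons, read 5′ to 3′ from the M21 transcripts, with the cysteine and histidine codons that hold the zinc in capitals. Zfp809 stands for a KRAB gene without near-copies, Zfp979, Zfp990 and Zfp987 for the cluster on chromosome 4, and Zfp968 for the copies on chromosome 2.
Zfp809: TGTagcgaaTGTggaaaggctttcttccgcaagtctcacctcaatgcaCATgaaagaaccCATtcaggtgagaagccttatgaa
Zfp979: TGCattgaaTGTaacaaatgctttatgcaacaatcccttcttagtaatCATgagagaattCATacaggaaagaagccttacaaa
Zfp990: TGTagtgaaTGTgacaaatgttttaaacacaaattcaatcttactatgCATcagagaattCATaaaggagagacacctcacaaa
Zfp987: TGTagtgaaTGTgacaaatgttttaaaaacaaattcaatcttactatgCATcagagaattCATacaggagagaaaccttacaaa
Zfp968: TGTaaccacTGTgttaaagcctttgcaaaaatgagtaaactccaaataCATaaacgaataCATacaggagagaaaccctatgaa
The unit of Zfp987 was identical to that of its neighbour Zfp988, and the unit of Zfp990 matched it at 80 of 84 bases (95.2%). The unit of Zfp809 matched the other units at 60.7% to 63.1% of bases. The unit shown for Zfp968 was the same in Zfp966, Zfp967 and Zfp969. Between the units of 1 gene, over the 144 members with at least 2 units, the median of the median identity between units was 69.0%.

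The listed members together held 31784 of 10017978 counts, or 0.317% (exact Clopper-Pearson 95% interval 0.314% to 0.321%). Their median level was 7.39 CPM (counts per 1e6 counts of the column), or 74 counts, with quartiles of 2.70 and 20.1 CPM. The 10th percentile was 0.709 CPM and the 90th was 50.1 CPM. Per kilobase of exon, a scale that allows for annotated length when genes are compared, the median was 2.16 CPM per kb. The length is that of all annotated exons of a gene together, whether or not they were expressed or could be counted. The median of all listed genes was 18.3 CPM, or 3.81 CPM per kb, so the members' median was -1.20 away from it on the log2(CPM + 1) scale and -0.82 away as a log2 ratio per kb. In a bulk sample, a low level in every cell and a higher level in a few cells cannot be told apart.

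A level of 1 CPM, which is 11 counts here, was reached by 133 of the 152 listed members (87.5%), against a background of 80.1% of all listed genes. A level of 10 CPM was reached by 65 members (42.8%, background 58.9%), and 100 CPM by 3 members (1.97%, background 15.5%). Counted over annotated genes, 77.8% of the 171 members reached 1 CPM, against 54.7% of all annotated protein-coding symbols. The members were therefore listed above 1 CPM somewhat more often than genes in general and reached the higher levels less often, with no test of either difference. Between 1 and 10 CPM lay 68 members, and between 10 and 100 CPM lay 62.

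**Figure D1:**
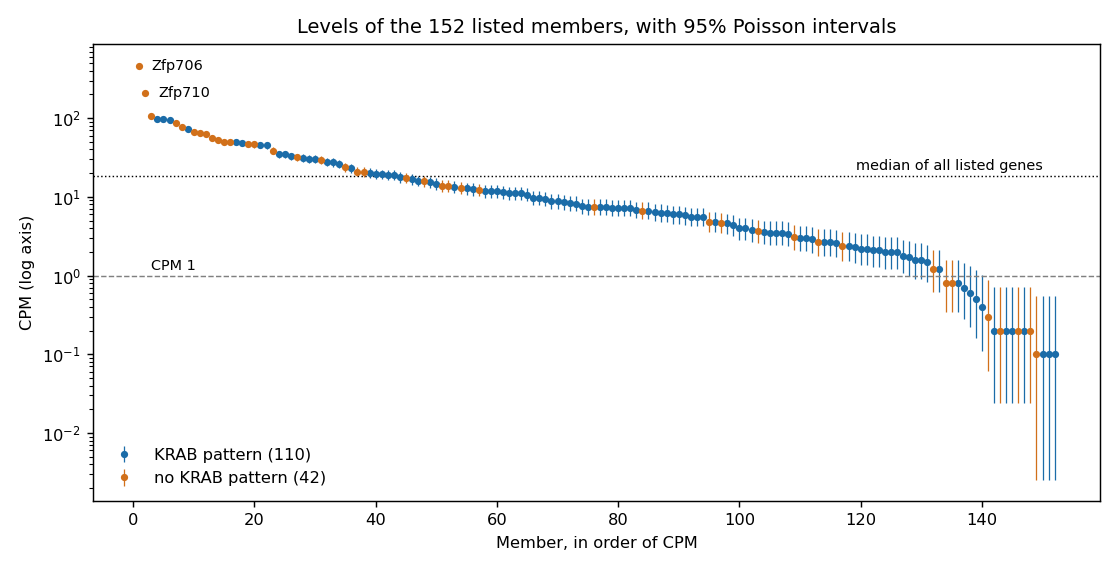
Level of each listed member in CPM on a log axis, ordered from highest to lowest, with exact Poisson 95% intervals for counting error. Zfp706 stands alone at 462 CPM, most members lie between 1 and 100 CPM, and intervals widen towards the tail, where the lowest members have 1 count.

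The counts were concentrated in a few members. Zfp706 alone held 14.6% of all member counts, the highest 3 members 24.6%, the highest 10 members 43.2% and the highest 15 members 52.3%. Only 4 of these 15 (Zfp655, Zfp979, Zfp990 and Zfp961) had the KRAB pattern.

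Zfp706, on chromosome 15 (chr15:36997027-37007773, GRCm38, minus strand), encodes a small protein with a single finger whose loss has been reported to hold embryonic stem cells in self-renewal. It had 4632 counts, or 462 CPM (exact Poisson 95% interval 449 to 476). Per kb of exon it stood at 92.8 CPM per kb, and the next member, Zfp710, at 30.4 CPM per kb. Of its transcript windows, 11.96% also occur in other genes, most often in Gm4262, so a part of its reads could be assigned elsewhere. Zfp710 had 2111 counts (211 CPM, interval 202 to 220), and Zfp622, a factor in the late maturation of the large ribosomal subunit, had 1069 counts (107 CPM, interval 100.4 to 113). The intervals of these 3 genes do not overlap, so Zfp706 and Zfp710 were resolved as the highest by count, as far as counting error goes, while the lower end of the Zfp622 interval reaches those of the next 2 genes.

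Zfp655 and Zfp979 had 965 counts each (96.3 CPM, interval 90.3 to 103), Zfp990 had 936 (93.4 CPM) and Zfp664 had 876 (87.4 CPM). The intervals of these 4 genes overlap, and their order was not resolved. The next were Zfp638 with 766 counts, Zfp961 with 733, Zfp687 with 674, Zfp740 with 646 and Zfp654 with 636. Zfp638 binds cytidine-rich DNA and takes part in silencing unintegrated retroviral DNA, and Zfp687 is a partner of the chromatin reader Zmynd8. Zfp609 (564 counts), Zfp652 (535 counts) and Zfp839 (504 counts) closed the highest 15. Zfp609 works with the cohesin loader Nipbl and the Integrator complex, and Zfp652 is a DNA-binding partner of the ETO family corepressor Cbfa2t3.

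Ranked per kb instead, 9 of these 15 genes stayed among the highest 15, and the share of KRAB genes among them rose from 4 to 7. Zfp638 and Zfp652, whose annotated exons span 15810 and 15444 bases, fell to places 42 and 52 with 4.84 and 3.46 CPM per kb. Zfp990 (26.7 CPM per kb), Zfp979 (23.4), Zfp958 (19.1), Zfp655 (17.2) and Zfp961 (16.9) followed Zfp706 and Zfp710. The eighth place went to Zfp809 at 16.7 CPM per kb and the ninth to Zfp984 at 16.5. Zfp809 recognises the primer binding site of murine leukaemia viruses and brings Trim28 to it.

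The median level of KRAB members was lower than that of the rest. The 110 listed KRAB members had a median of 7.04 CPM (1.76 CPM per kb), and the 42 without the pattern had a median of 16.5 CPM (3.25 CPM per kb), a difference of -1.12 on the log2(CPM + 1) scale and of -0.88 as a log2 ratio per kb. All 3 members above 100 CPM lacked the pattern. At the same time 89.1% of KRAB members and 83.3% of the others reached 1 CPM: the KRAB members were spread over a narrower range, with a 90th percentile of 31.3 CPM against 75.5 CPM. The pattern may miss diverged boxes, as in Zfp746 and Zfp956, which it did not mark.

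Other genes of the same kind give a scale for these values. The 182 other listed Zfp genes with a number and no suffix had a median of 11.2 CPM, -0.54 being the members' difference on the log2(CPM + 1) scale. Per kb their median was 2.16 CPM per kb, the same as that of the members to 3 digits, so the difference in CPM did not persist per kb. The sets differ in make-up: 49.0% of the 194 annotated other numbered Zfp genes had the KRAB pattern, against 71.3% of annotated members. The 172 listed genes outside the set with both a KRAB pattern and a finger had a median of 4.84 CPM and 1.16 CPM per kb. The KRAB members lay 0.46 above them on the log2(CPM + 1) scale and 0.61 above them as a log2 ratio per kb. These other KRAB genes include some of the other numbered Zfp genes, such as Zfp57 and Zfp568, so the sets are not separate. The levels of the 4 sets overlap over most of their range.

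**Figure D2:**
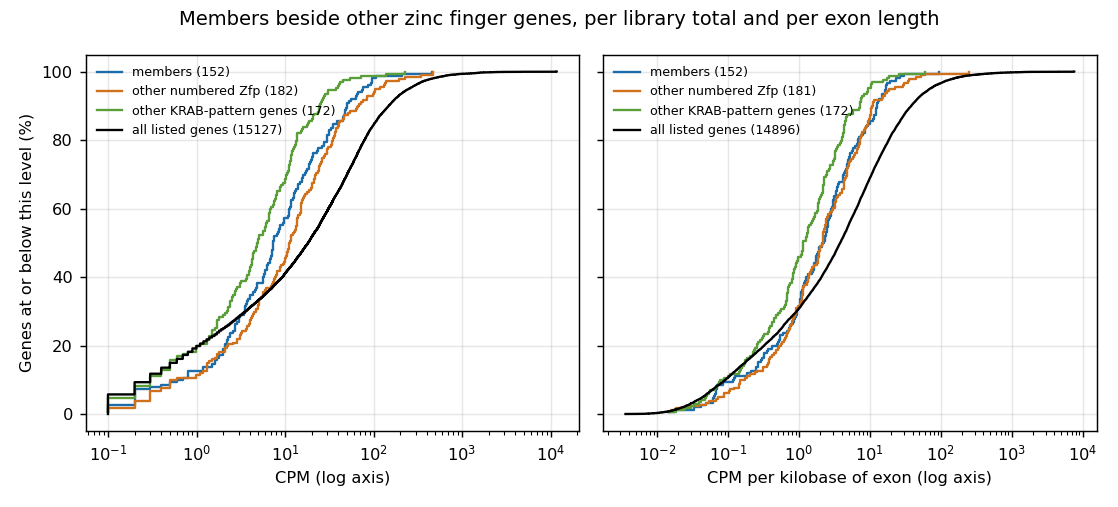
Share of genes at or below each level (y axis, percent) against the level in CPM (left) and in CPM per kb of exon (right), both on log axes, for the members, other numbered Zfp genes, other KRAB genes and all listed genes. In CPM the members lie between other KRAB genes and other numbered Zfp genes, and per kb the curves of members and other numbered Zfp genes meet at the median of 2.16 CPM per kb.

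The annotated members sat in groups along the genome. With gaps of up to 500 kb, 117 of the 171 fell into 25 clusters, 12 of them with at least 4 members, and 54 stood alone. Listed members in clusters had a median of 7.34 CPM (104 genes) and those outside 8.93 CPM (48 genes), a difference of -0.25 on the log2(CPM + 1) scale. The sign turned per kb, where the clustered genes had 2.32 and the others 1.65 CPM per kb. It also turned among KRAB genes alone, with 7.19 CPM for 91 in clusters and 5.59 CPM for 19 outside. No direction can therefore be given for clustering as such.

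The cluster on chromosome 4 (chr4:145510759-147848366) held the most counts. Its 17 members all had the KRAB pattern and all were listed, 16 of them at 1 CPM or more. They held 4127 counts, 13.0% of all member counts, with a median of 11.4 CPM and 4.49 CPM per kb. Zfp979 (965 counts), Zfp990 (936), Zfp984 (482), Zfp988 (347), Zfp985 (327) and Zfp992 (312) led it. Between them and the tail came Zfp980 (168), Zfp987 (160) and Zfp978 (114), and then Zfp991 (73), Zfp989 (69), Zfp982 (67) and Zfp933 (40). At the lower end were Zfp981 (24), Zfp993 (22), Zfp986 (15) and Zfp600 (6). Shared sequence was the rule there. Of the 17, 16 had more than 10% of their windows in another gene and 10 had more than 50%. More than 10% of the exons lay under another annotated gene for 9 of them. Zfp991 and Zfp992, whose coding sequences were 99.5% identical, had 73 and 312 counts, and Zfp987 and Zfp988, at 95.1%, had 160 and 347. How the authors' counting divided reads within such pairs was not tested, so these values are uncertain.

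The promoters of Zfp979 and Zfp600 are shown because these genes, the highest and the lowest of the cluster, have nearly the same sequence upstream of the starts compared. Each is the 250 bases before the start in RefSeq (GRCm38.p6), written 5′ to 3′ along the gene with CG pairs in capitals, at chr4:147642509-147642758 on the minus strand for Zfp979 and chr4:146156577-146156826 on the plus strand for Zfp600. The pair was chosen after their values were seen. Zfp600 has 2 starts in RefSeq. The one with more CG pairs is shown, and its other start was not compared.
Zfp979: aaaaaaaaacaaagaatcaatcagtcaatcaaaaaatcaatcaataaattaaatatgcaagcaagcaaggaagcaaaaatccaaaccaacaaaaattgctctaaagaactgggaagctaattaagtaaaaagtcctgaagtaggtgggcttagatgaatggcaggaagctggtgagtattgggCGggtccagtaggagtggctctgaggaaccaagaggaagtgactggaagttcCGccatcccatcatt
Zfp600: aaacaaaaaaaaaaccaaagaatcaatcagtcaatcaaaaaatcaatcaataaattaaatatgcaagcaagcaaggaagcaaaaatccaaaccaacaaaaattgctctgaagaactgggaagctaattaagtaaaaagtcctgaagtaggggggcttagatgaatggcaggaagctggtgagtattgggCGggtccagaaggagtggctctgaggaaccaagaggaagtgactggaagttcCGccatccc
The alignment matched 240 of 250 bases (96.0%), and each holds 2 CG pairs. The levels were 23.4 CPM per kb for Zfp979 and 0.121 CPM per kb for Zfp600. The genes differ in what can be counted: 27.1% of the windows of Zfp979 occur in other genes and no other gene overlaps its exons, while 81.2% of the windows of Zfp600 occur elsewhere, mostly in Rex2, and all of its exonic bases lie under the long noncoding gene Gm26573 on the opposite strand. The part of this in the low count was not tested.

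**Figure D3:**
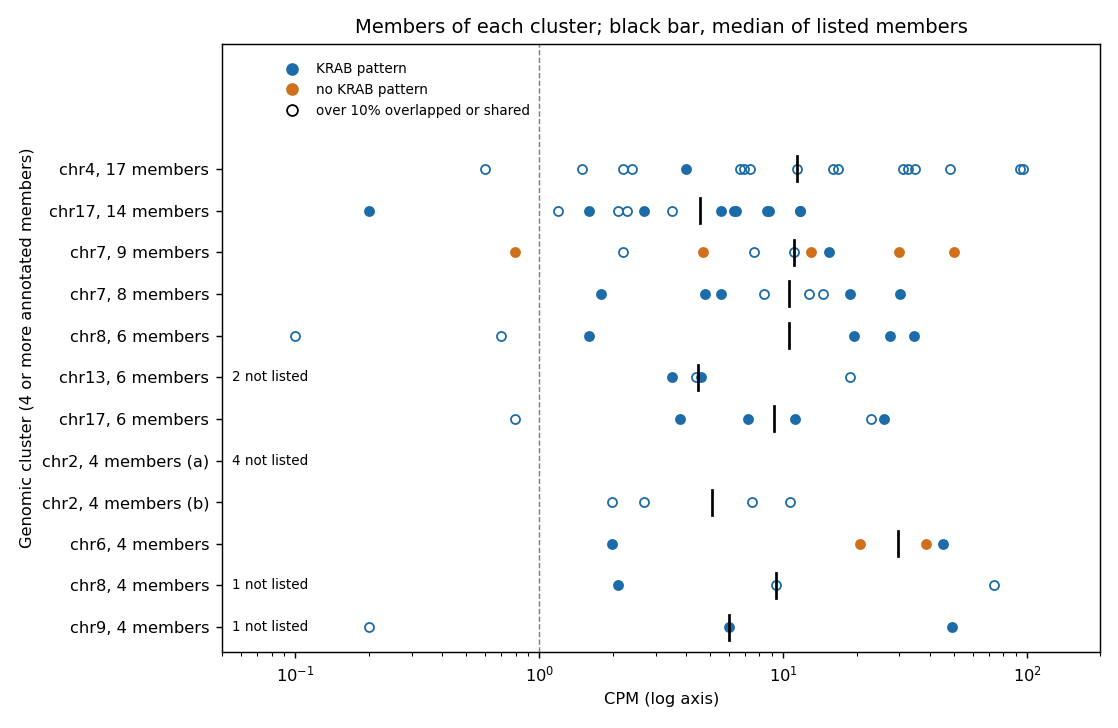
Level of each listed member in CPM (log axis) in the 12 clusters with at least 4 annotated members, colored by KRAB pattern, with open circles for members with more than 10% overlapped or shared sequence and black bars at the medians. The chromosome 4 cluster spans Zfp979 at 96.3 CPM to Zfp600 at 0.599 CPM, and the first chromosome 2 cluster has no point because none of its 4 members was listed.

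The second largest cluster, on chromosome 17 (chr17:21383748-22867134), held 14 KRAB members, all listed, at a median of 4.54 CPM and 0.936 CPM per kb. They ran from Zfp942 and Zfp944, with 118 counts each (11.8 CPM), down to Zfp677 at 0.200 CPM. Shared windows were fewer than on chromosome 4, with 4 members above 10% and none above 50%. On chromosome 7, the 9 members at chr7:127244274-127885996, only 4 of them KRAB genes, ran from Zfp646 (50.2 CPM) to Zfp629 (0.799 CPM), and the 8 at chr7:42579783-43618285 from Zfp819 (30.05 CPM) to Zfp658 (1.80 CPM). Zfp819, a KRAB gene studied in embryonic stem cells for its binding to Trim28, stood at 12.2 CPM per kb.

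The smaller clusters differed in range. The 6 members at chr17:32765496-33033402 ran from Zfp871 (26.0 CPM) to Zfp799 (0.799 CPM), and on chromosome 8 from Zfp930 (34.5 CPM) to Zfp866 (0.0998 CPM). Zfp961 (73.2 CPM) and Zfp709 (2.10 CPM) were the ends of another cluster on chromosome 8. The highest median among clusters of 4 or more, 29.5 CPM, belonged to the 4 members on chromosome 6, from Zfp777 (45.3 CPM) to Zfp786 (2.00 CPM). On chromosome 13, 4 of 6 members were listed, from Zfp748 (18.8 CPM) to Zfp759 (3.49 CPM). On chromosome 9, Zfp809 (49.4 CPM) had Zfp872 (0.200 CPM) as a neighbour, and Zfp653 there was not listed. Where the lowest listed member had more than 3 counts, these clusters spanned from 5.37-fold in CPM on chromosome 13 to 34.9-fold between Zfp961 and Zfp709 on chromosome 8.

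The 3 clusters on chromosome 2 differed in whether their members were listed. None of the 4 members at chr2:175372436-175931100 (Zfp965, Zfp966, Zfp968 and Zfp969) was listed. Of the pair at chr2:176521056-176719085, Zfp967 was not listed and Zfp973 was listed with 5 counts. The coding sequences of Zfp966, Zfp967, Zfp968 and Zfp969 were identical over 1455 bases, and that of Zfp965 was identical to that of Zfp973 over 954 bases. From 90.0% to 100% of the windows of these 5 genes occur in another gene, so a count that drops reads with several places would hold few of theirs. The 4 members at chr2:177464733-178078476 were all listed, from Zfp931 (10.7 CPM) to Zfp972 (2.00 CPM), with a median of 51.8% shared windows. Low or missing values of the copies thus cannot be told apart from reads that were not assigned.

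The low tail held 19 listed members below 1 CPM (12.5% of 152, background 19.9%) and the 19 that were not listed. Zfp683, Zfp866, Zfp879 and Zfp935 had 1 count each (0.0998 CPM, exact Poisson 95% interval 0.00253 to 0.556). Zfp612, Zfp644, Zfp677, Zfp781, Zfp853, Zfp872 and Zfp957 had 2 counts each. Just below 1 CPM lay Zfp618, Zfp629 and Zfp799 with 8 counts each, and just above it Zfp800 and Zfp994 with 12 and Zfp986 with 15. The intervals of these 6 genes overlap, so the line at 1 CPM does not divide them at this depth. A gene not listed was taken as 0 counts, with a set limit of 3 counts (0.299 CPM) in place of the 2-sided interval used above. A gene listed under another symbol would also seem unlisted, and 231 listed symbols did not match M21.

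Overlap with another gene was more common in the tail, and shared sequence differed less at the 10% limit. Overlap above 10% was found for 10 of the 19 listed below 1 CPM (52.6%) and 7 of the 19 not listed (36.8%). Among the 133 members at 1 CPM or more, 19 had it (14.3%). Shared windows above 10% were found for 7 (36.8%), 9 (47.4%) and 43 (32.3%) of these sets. Over the listed members, the rank correlation of shared windows was -0.08 with CPM and 0.004 with CPM per kb. Of the 19 listed below 1 CPM, 12 (63.2%) had more than 10% of exonic bases under another annotated gene or more than 10% of windows in another gene, and so had 12 of the 19 not listed. Of the 133 members at 1 CPM or more, 48 (36.1%) did. With a limit of 50% instead, chosen after seeing the data, the numbers on either measure were 11, 12 and 19 (14.3%). For shared windows alone they were 4, 7 and 13. Same-strand overlap stood apart: of the 12 members with more than 50% of exonic bases under a gene on the same strand, 3 reached 1 CPM, against 9 of the 16 with such overlap on the opposite strand and 114 of the 135 (84.4%) with at most 10% overlap on either. Reads in exons that 2 genes share can be left uncounted, and whether that happened here was not tested. The overlap is with the whole span of the other gene, introns included, so it need not be with its exons. Among the 12 same-strand members, the windows shared most with 1 other gene ran from 0.654% for Zfp644 (with Gm28039) to 99.2% for Zfp935 (with Gm49359).

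Zfp644 has long exons and a low count. It encodes a zinc finger partner of the histone methyltransferases Ehmt1 and Ehmt2, its exons span 14001 bases, and it was listed with 2 counts. Of its exonic bases, 97.7% lie under Gm28039, a transcript locus annotated on the same strand in M21. Zfp653, Zfp708, Zfp865, Zfp882 and Zfp953, none of them listed, had from 97.6% to 100% of their exonic bases under a gene on the same strand. The exons of Zfp750, a regulator of epidermal differentiation, lie entirely under Tbcd on the opposite strand, and it was not listed.

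At or below 10% on both measures, 7 members were listed below 1 CPM and 7 were not listed. The first were Zfp618, Zfp629, Zfp677, Zfp683, Zfp853, Zfp879 and Zfp957, and the second Zfp608, Zfp616, Zfp641, Zfp648, Zfp663, Zfp735 and Zfp831. Zfp683 (1 count) is known as Hobit, a factor of tissue-resident lymphocytes. Of all 92 listed members at or below 10% on both measures, 92.4% reached 1 CPM, with a median of 8.38 CPM and 2.02 CPM per kb.

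**Figure D4:**
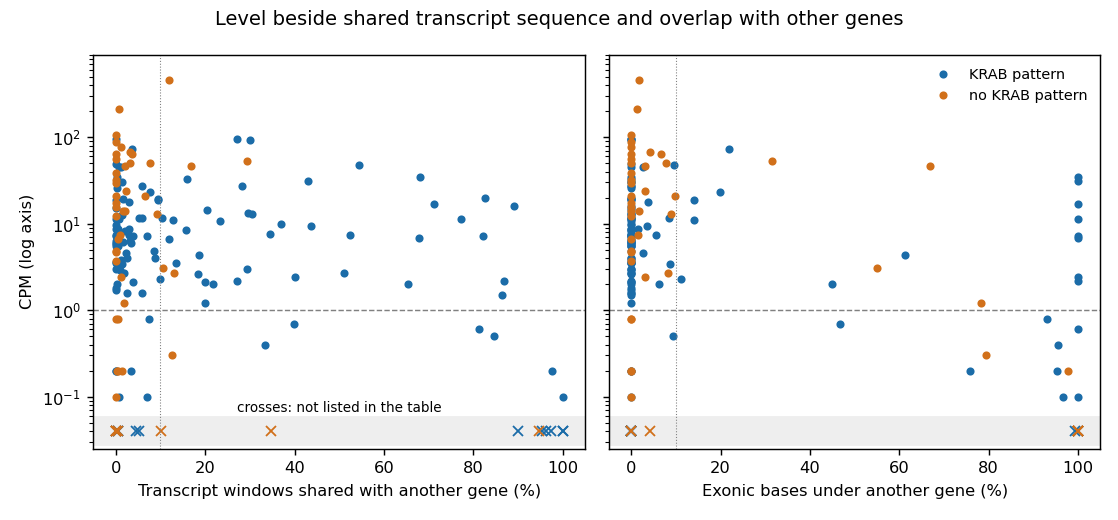
Level of each member in CPM (log axis) against the percent of 50-base transcript windows found in another gene (left) and the percent of exonic bases under another gene (right), with crosses in the grey band for members not listed and a dashed line at 1 CPM. Of the 133 members above the line, 85 lie at or below 10% on both measures, against 7 of the 19 below it and 7 of the 19 crosses.

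Promoters of the members hold fewer CG pairs than those of listed genes in general. The CG dinucleotide, the place of DNA methylation in mammals, was counted from 250 bases before to 50 after the RefSeq start; it reads the same on both strands, and 92.1% of all RefSeq promoters hold at least 1 in the 250 bases before the start. The 130 listed members with a promoter sequence had a median of 12 CG pairs (2 to 59), KRAB members 10, members without the pattern 24, and the 11881 listed genes with a sequence 20. Members above the median of 12 had a median level of 9.68 CPM (63 genes) and the others 6.19 CPM (67 genes), a difference of 0.57 on the log2(CPM + 1) scale and of 0.38 as a log2 ratio per kb. Among KRAB members the medians were 8.58 and 6.09 CPM, a difference of 0.44 on the log2(CPM + 1) scale and of 0.09 as a log2 ratio per kb. A dense and a sparser promoter of well-counted members are shown: Zfp740 (646 counts; chr15:102203750-102203999, plus strand) has 44 CG pairs in the 250 bases before one of its starts, and the KRAB gene Zfp809 (495 counts; chr9:22225453-22225702, plus strand) has 11.
Zfp740: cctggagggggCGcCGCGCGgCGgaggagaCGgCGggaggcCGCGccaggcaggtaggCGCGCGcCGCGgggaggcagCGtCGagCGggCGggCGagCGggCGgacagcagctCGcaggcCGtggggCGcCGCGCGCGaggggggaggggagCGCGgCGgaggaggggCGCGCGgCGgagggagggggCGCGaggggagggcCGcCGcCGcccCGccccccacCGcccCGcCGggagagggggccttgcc
Zfp809: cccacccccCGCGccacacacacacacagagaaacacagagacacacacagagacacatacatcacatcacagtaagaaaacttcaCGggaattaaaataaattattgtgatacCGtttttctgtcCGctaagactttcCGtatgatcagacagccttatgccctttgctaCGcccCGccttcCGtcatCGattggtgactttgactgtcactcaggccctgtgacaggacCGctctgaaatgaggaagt
Some high members have few CG pairs: Zfp710, the second highest, has 2 in the same window, as does Zfp979.

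Members with a described role covered the whole range. The 34 such symbols include Zfp640, which M21 annotates as a pseudogene and which is not counted among the members. Of the 34, 29 were listed, with 26 at 1 CPM or more, 18 at 10 CPM or more and 2 at 100 CPM or more. Background shares of all listed genes at these levels were 80.1%, 58.9% and 15.5%. The 29 had a median of 20.9 CPM, against 7.39 CPM for all listed members. Beside those named above, Zfp830, a nuclear protein needed for early embryo survival, ranked 14 among the members per kb (13.1 CPM per kb), and Zfp777 ranked 16 (12.6 CPM per kb). Zfp932, which silences endogenous retroviruses together with its copy Gm15446, had 98 counts (2.99 CPM per kb), and 37.0% of its windows are shared. Zfp711, a partner of the histone demethylase Phf8, is the X-linked gene of the list and had 48 counts (4.79 CPM). Zfp703, a corepressor of the NET family, had 31 counts (3.09 CPM), with 55.01% of its exonic bases under a gene on the opposite strand. Zfp827, which recruits the NuRD complex, had 139 counts (13.9 CPM).

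The partners of the KRAB box were far more abundant than the KRAB genes. Of 22 genes of the Trim28 and Setdb1 pathway, 21 were listed, all at 10 CPM or more and 16 at 100 CPM or more. Of all listed genes, 58.9% and 15.5% reached these levels. The median of the partners was 36.8 CPM per kb against 1.76 for the KRAB members. Trim28 had 14919 counts (358 CPM per kb), Setdb1 1055 (15.4 CPM per kb), and Pphln1, a subunit of the HUSH silencing complex, was lowest by count with 330 (7.25 CPM per kb). Per kb the lowest was Atf7ip, a partner of Setdb1, at 2.70 CPM per kb. Trim28 alone had more counts than the 110 KRAB members together, which held 14423. Fam208a, another HUSH subunit, was not listed under that symbol. Among Zfp genes outside the number range, Zfp42, a marker of naive embryonic stem cells also called Rex1, had 4742 counts (252 CPM per kb), and Zfp57, the KRAB protein that protects imprints, had 2295 (60.5 CPM per kb).

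The labelled cell type was checked with defining markers. Nanog, Pou5f1, Esrrb, Klf4, Tfcp2l1 and Zfp42 lay between 312 and 901 CPM, and Sox2 was not listed. Of the fibroblast markers only Col1a1 was listed, at 5.79 CPM, and of the blood markers only Cd68, at 30.05 CPM. None of the 3 neural markers was listed. The embryonic stem cell marker Sox2 was missing too, so absence from the list does not by itself show that a gene was not expressed.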

How the data were processed

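Poly(A) RNA was sequenced in 2 doxycycline-treated libraries, and the authors deposited 1 column of raw counts per protein-coding gene symbol that does not say whether it holds 1 library or both. The submitters' processing notes name GRCm38.p6 as the build and list Subread 1.6.4 with featureCounts, Trimmomatic 0.38, SAMtools and HISAT2 as tools. The sources used here do not give their settings, the annotation release, strand use or the treatment of reads with several places. The column held 15127 genes with 1 count or more and summed to 10017978, so 1 CPM is 11 counts. The design listed RefSeq proteins for the KRAB search, and translations of M21 coding sequences were used in their place.

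Counts were scaled to CPM by the total, logged as log2(CPM + 1), and divided by the summed exon length in GENCODE M21 for CPM per kb. Of the listed symbols, 231 did not match M21 and have no length. Counts have exact Poisson 95% intervals and shares have Clopper-Pearson 95% intervals, also exact. Neither covers more than counting error, because molecules were not tagged and reads from 1 molecule can repeat. Shared sequence is the share of 50-base transcript windows found on either strand in transcripts of another gene, and overlap is the share of exonic bases inside the span of another annotated gene. Shared windows were found by exact match and overlap from annotated coordinates, while KRAB boxes and fingers were searched by pattern. Simulated data were used to test a planted change in level, shared windows, finger counts and Poisson intervals. The overlap and the KRAB search were not tested in that way. Promoter sequences are from RefSeq, GRCm38.p6.

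The members and lists were chosen with earlier results of these data known. Named genes are the 15 highest and 10 lowest members by count, the 3 on each side of 1 CPM, the highest and lowest of each cluster of 4 or more, the members with a described role, and the ends of the partner list; ties at 2 counts added 1 to the lowest, and others are named as listed groups or as chosen after their values were seen. Tables were made with pandas 2.3.3 and numpy 2.4.6 under Python 3.11.15, intervals with scipy 1.17.1 and plots with matplotlib 3.10.9.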

Additional observations from a re-analysis of the deposited data

How the results depend on the processing

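No replicate could be left out, since there is 1 column of counts that names neither library, so every value lacks a replicate error. No paired analysis was possible because the column carries no replicate number. For 8 results, 23 alternatives were run, 20 planned and 3 chosen after seeing the data, and 19 kept their direction and stayed within 1.5 times. The difference from the other numbered Zfp genes, -0.54 on the log2 scale, was 0.0050 per kilobase of exon. The difference between members in clusters and outside, -0.25, was 0.50 per kilobase of exon and 0.31 among KRAB members only. Of the 15 highest members, 9 remained among the highest 15 per kilobase. The cause of these changes was not tested. The median of the members ranged from 6.39 CPM, with members not listed at 0, to 9.68 CPM, with at least 10 counts. At 11 counts the interval reaches 64.5% to each side of the value on average, and at 100 counts 20.1%, so the order of members below 1 CPM was not resolved.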

Other observations

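Genes whose symbols add a letter to a number in the same range were left out by the rule. Of 11 such genes, 9 were listed. The highest was Zfp804b with 339 counts (33.8 CPM), a gene without the KRAB pattern, followed by the KRAB neighbours Zfp955b with 240 counts (24.0 CPM) and Zfp955a with 126 counts (12.6 CPM). Zfp729b had 121 counts (12.1 CPM) while its neighbour Zfp729a, with nearly all exonic bases under another gene, was not listed, and neither was Zfp804a.

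Other KRAB genes lie between the members of the clusters. In the chromosome 4 cluster these were Zfp534 with 273 counts, Rex2 with 206 and Gm13212 with 66. In the second chromosome 2 cluster, where the 4 members held 229 counts, the 5 other KRAB genes held 938, led by Gm14325 with 418 and Gm14403 with 252. In the chromosome 17 cluster of 14 members, Zfp229 had 537 counts (53.6 CPM), against 11.8 CPM each for Zfp942 and Zfp944, the highest members there. On chromosome 13, 12 of 16 such genes were listed and 7 reached 1 CPM.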
